A study of Homo sapiens with 8 samples.

Results

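The comparison described here is the difference in P-body partition between 2 human acute myeloid leukaemia cell lines. For each gene, the log2 ratio of P-body to cytosolic RNA in MOLM-13 was set against the same ratio in HEL, and the difference (MOLM-13 minus HEL) is called the partition difference. Genes were taken where a symbol stood on a single row of both count tables, which held for 60196 symbols. Of these, 29298 had at least 1 count in each line, and 11984 had enough counts in each line to be tested. Among the tested genes, 384 were called on opposite sides in the 2 lines, and these are described as genes that switch side.

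Erythroleukaemia cells (HEL) were set beside leukaemia cells of monocytic character (MOLM-13), both established lines for which the labels give no treatment. Each line had 2 libraries from P-bodies and 2 from the fraction labelled cyto, read here as cytosol, which makes 4 groups of 2. The sources used here do not describe the purification, and no label states that the 2 libraries of a group derive from different cultures. A p-value below therefore rests on the spread between paired libraries of a group, pooled over the 4 groups and moderated across genes. That spread may be technical. Since each condition is represented by 1 line, whatever differs between the cultures, libraries or preparations of HEL and MOLM-13 cannot be told apart from the lines.

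P-bodies are cytoplasmic condensates of untranslated messenger RNA together with proteins of decapping, deadenylation and translational repression. Messages move in and out of them as translation changes, and messages rich in A and U are known to be held there more than messages rich in G and C. Messages of ribosomal proteins and several translation factors begin with a C followed by a run of pyrimidines, the 5′ terminal oligopyrimidine (TOP) start, through which their translation follows growth signals.

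TOP messages and the host genes of small nucleolar RNAs make up much of what follows. Of the 19 tested host genes with an entry in the RefSeq promoter table, 5 carry this start. The bases around the annotated start are shown for called members of each such list that carry this start and have the lowest p among these. They are also shown for genes with this start that switched from higher in HEL to lower in MOLM-13 under every scaling. PFKM, which has this start and switched the other way under every scaling, is not shown. For contrast, the bases are given for CENPE and TPR, which lack this start. Sequences are from RefSeq on GRCh38.p14, run 5′ to 3′ on the gene's own strand, and begin 10 bases before the start. Capitals mark the unbroken pyrimidine run that begins with a C at the start, where at least 4 pyrimidines follow the C. CENPE and TPR also begin with a C, but their runs are shorter than this and are not capitalised.
RPL22 (chr1:6199576-6199605, minus strand): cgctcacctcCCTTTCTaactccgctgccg
RPSA (chr3:39406710-39406739, plus strand): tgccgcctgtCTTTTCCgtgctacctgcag
RPL41 (chr12:56116623-56116652, plus strand): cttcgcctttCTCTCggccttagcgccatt
RPLP0 (chr12:120201092-120201121, minus strand): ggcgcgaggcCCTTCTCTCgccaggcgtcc
NAP1L1 (chr12:76084666-76084695, minus strand): gctcttgggtCTTTTTTagcgccatctgct
TPT1 (chr13:45341164-45341193, minus strand): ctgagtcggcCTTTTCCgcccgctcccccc
SNHG19 (chr16:2155339-2155368, minus strand): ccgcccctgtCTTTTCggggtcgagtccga
SNHG12 (chr1:28581854-28581883, minus strand): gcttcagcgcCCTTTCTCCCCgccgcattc
RWDD1 (chr6:116571494-116571523, plus strand): gccgcccgctCTCCCggcgcggcagctgtc
TAF1D (chr11:93741476-93741505, minus strand): aatagccaacCCTTTTCTTCCgcacggttg
CENPE (chr4:103198324-103198353, minus strand): ggccattttcctgggaccagttcagcctga
TPR (chr1:186375234-186375263, minus strand): tgcgcgcgcacttcggtcgcgggcggtgag

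Library totals ran from 13153551 to 18071473 counts in HEL and from 5897625 to 11000536 in MOLM-13. All 11 erythroid and megakaryocytic markers reached 1 CPM (counts scaled to the library total) in HEL and 3 of 11 in MOLM-13, with a summed level of 1331 to 1357 CPM in HEL P-bodies and 39.2 to 43.7 CPM in MOLM-13 P-bodies. All 11 monocytic and granulocytic markers reached this level in MOLM-13 and 3 of 11 in HEL, so the libraries of each line carried the markers of that line. Replicates varied more in HEL than in MOLM-13, at a biological coefficient of variation of 0.0771 and 0.0392 when each line was fitted alone.

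The partition of a gene was broadly alike in the 2 lines. Across the 11984 tested genes the log2 P-body over cytosol change in HEL and that in MOLM-13 had a Pearson r of 0.709 and a Spearman rho of 0.676, given as a description since genes are not replicates. In HEL, 3927 genes (32.8%) were higher in P-bodies and 3199 (26.7%) lower; in MOLM-13, 3593 (30%) were higher and 4178 (34.9%) lower. Both lines shared the side for 4955 genes, 2891 of them higher in P-bodies in both and 2064 lower in both. A shared side did not mean an equal size. Among the 2891 genes higher in both lines the partition difference was called higher in MOLM-13 for 601 and lower for 606. Among the 2064 genes lower in both lines it was called higher for 119 and lower for 258. Over all tested genes 12.7% were called higher and 20.5% lower.

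Some messages had nearly the same partition in both lines. KTN1, which encodes the kinesin-binding protein kinectin, stood at 577 and 645 normalised CPM in HEL P-bodies against 202 and 203 in HEL cytosol, and at 2405 and 2383 in MOLM-13 P-bodies against 799 and 786 in MOLM-13 cytosol. The P-body libraries were thus above the cytosolic libraries without overlap in each line, at a log2 change of 1.59 ± 0.06 (SE) in both. STAU2, a double-stranded RNA-binding protein of RNA granules, had a log2 change of 1.56 in each line, and the zinc finger protein ZNF292 had 1.43 in HEL and 1.44 in MOLM-13. On the cytosolic side, TGFB1, a secreted growth factor, had -1.10 in HEL and -1.11 in MOLM-13, and WBP2, a transcriptional coactivator, had -1.03 and -1.02.

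The partition difference was called in 3977 of the 11984 genes (33.2%), at an adjusted p below 0.05. It was called higher in MOLM-13 for 1526 genes (12.7%) and lower for 2451 (20.5%). A difference of at least 2-fold was found for 802 genes (6.69%), of which 200 (1.67%) were higher and 602 (5.02%) lower. The split between higher and lower depended on where zero was set. With TMM scaling the median partition difference over all tested genes was -0.12, with RLE size factors -0.03, with library totals -0.00, and with TMM within each line 0.06. Higher genes accordingly made up 38.4% of called genes with TMM, 48.4% with RLE, 53.0% with totals and 60.9% with TMM within each line. The same 1526 genes were called higher under all 4 scalings, and 1548 of the 2451 lower genes were called lower under all 4. Under all 4 scalings 200 genes were at least 2-fold higher and 337 at least 2-fold lower. TMM had the lowest median of the 4 and TMM within each line the highest. The higher overlap was therefore the TMM set itself, and the lower overlap the set called lower with TMM within each line. Agreement on higher genes was thus fixed by the choice of scalings. A MOLM-13 library as the TMM reference left fewer lower genes, 1330 to 1474. Without HEL P-body replicate 1, HEL cytosol replicate 1 or HEL cytosol replicate 2 the split turned, to 2843 higher and 1540 lower, 2384 and 1276, and 2345 and 1172. The counts used here hold no spike-in, so every change is relative to the other genes of a library.

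**Figure D1:**
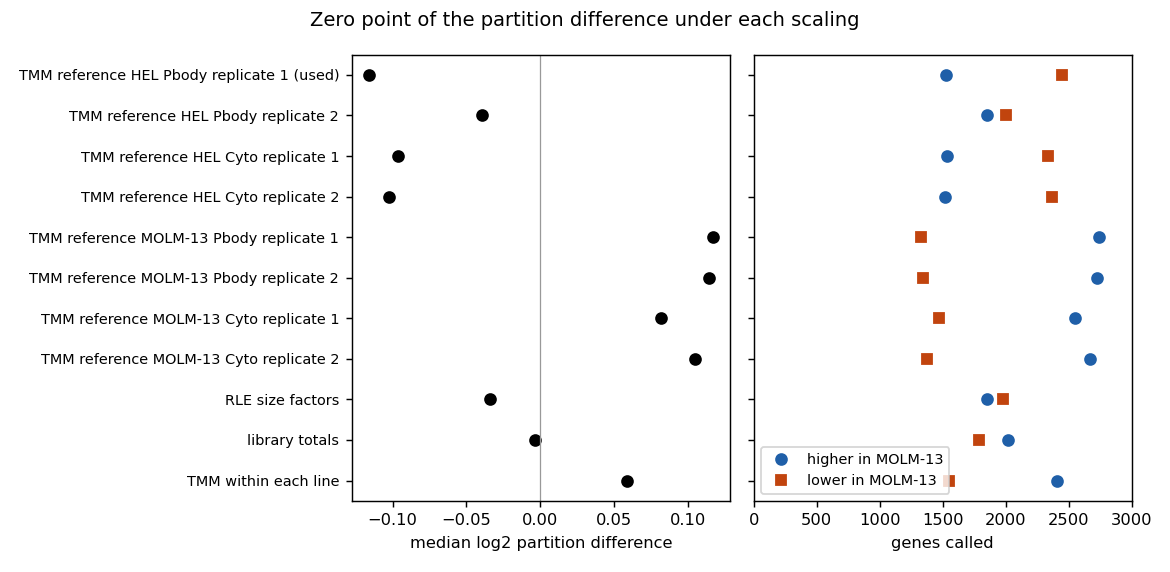
The left panel plots the median log2 partition difference over all 11984 tested genes, and the right panel the number of genes called higher (circles) or lower (squares) in MOLM-13, for each library used as the TMM reference and for 3 other scalings. With a HEL library as the reference 1520 to 1852 genes were called higher and 2004 to 2451 lower, and with a MOLM-13 library as the reference 2550 to 2741 were called higher and 1330 to 1474 lower.

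CENPE, the kinetochore motor that captures microtubules in mitosis, had the greatest upward difference among genes of at least 10 CPM in each line. It stood at 99.8 and 104 normalised CPM in HEL P-bodies against 181 and 175 in HEL cytosol, and at 881 and 833 in MOLM-13 P-bodies against 327 and 313 in MOLM-13 cytosol. The fractions did not overlap in either line and their order was opposite, with P-bodies below cytosol in HEL and above it in MOLM-13. The log2 partition difference was 2.23 ± 0.08 (SE; edgeR adjusted p = 7.33e-10), which is 4.68-fold. The gene spans chr4:103105806-103198409 on the minus strand and has a coding length of 8106 bases.

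TPR, a coiled-coil protein of the nuclear pore basket (chr1:186311652-186375693, minus strand), had 411 and 382 normalised CPM in HEL P-bodies against 676 and 689 in cytosol, and 1446 and 1420 in MOLM-13 P-bodies against 692 and 709 in cytosol. Cytosolic levels of TPR were thus alike in the 2 lines, while the P-body libraries lay below them in HEL and above them in MOLM-13. Its log2 partition difference was 1.82 ± 0.08 (SE). PIAS3, a SUMO ligase and STAT3 inhibitor, showed the same order, with 19.1 and 18.6 CPM in HEL P-bodies against 33.5 and 34.3 in cytosol, and 17.3 and 19 in MOLM-13 P-bodies against 8.44 and 8.17 in cytosol. For PIAS3 it was the P-body levels that lay close together in the 2 lines. LMNB1, the nuclear lamina protein lamin B1, had 52.2 and 53.7 CPM in HEL P-bodies against 66.2 and 75.7 in cytosol, and 79.1 and 83.7 in MOLM-13 P-bodies against 32.0 and 30.4 in cytosol, a log2 difference of 1.81 ± 0.13 (SE).

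The other genes with the greatest upward differences included IGF2R, the mannose 6-phosphate receptor that sorts lysosomal enzymes. In HEL it had 13.3 and 15.3 normalised CPM in P-bodies against 47.9 and 57.6 in cytosol, while in MOLM-13 its 137 and 135 in P-bodies were near the 128 and 118 in cytosol. IGF2R was called lower in P-bodies in HEL and was not called in MOLM-13, with a log2 difference of 2.03 ± 0.14 (SE). ALDH1L2, a mitochondrial folate enzyme, had a log2 difference of 1.79, CUL3, a ubiquitin ligase scaffold, 1.71, and ARHGAP25, a Rac GTPase-activating protein of blood cells, 1.60.

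GPR85, an orphan G protein-coupled receptor (chr7:113078331-113087778, minus strand), had the greatest downward difference. It stood at 53.4 and 49.8 normalised CPM in HEL P-bodies against 8.79 and 10.7 in cytosol, and at 40.7 and 47.9 in MOLM-13 P-bodies against 60.5 and 51.2 in cytosol. P-body levels were close in the 2 lines and the cytosolic level was low in HEL alone, which gave a log2 difference of -2.73 ± 0.18 (SE; edgeR adjusted p = 2.56e-07). ENC1, an actin-binding BTB-kelch protein, had -2.21, with log2 changes of 2.77 in HEL and 0.56 in MOLM-13. The transcription factor NFIA had -2.13 and RSBN1, a histone demethylase, -1.81, each more than 3-fold higher in P-bodies in HEL and not called in MOLM-13. PTMS, the acidic nuclear protein parathymosin, reached -1.92 from the other side, with log2 changes of -0.39 (not called) in HEL and -2.30 in MOLM-13. The long noncoding RNAs NNT-AS1 and ENSG00000259865 had -1.90 and -1.88, and reads of an antisense gene cannot be told apart from those of its partner without a known strand setting.

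**Figure D2:**
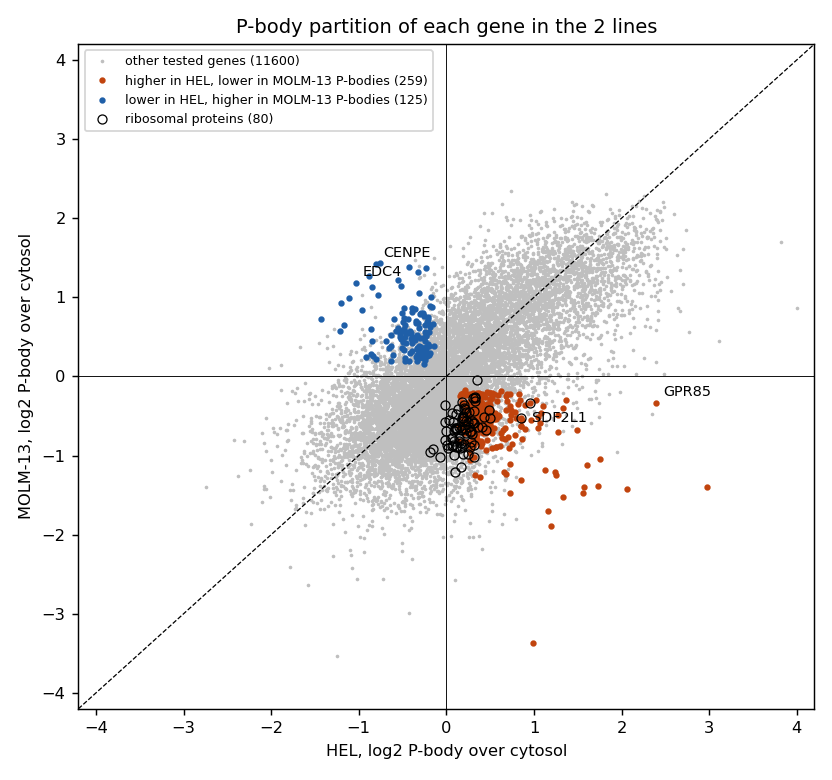
Each point is a tested gene, at its log2 P-body over cytosol change in HEL (x axis) and in MOLM-13 (y axis); the dashed line marks equal partition. Red points are the 259 genes higher in HEL and lower in MOLM-13 P-bodies, blue points the 125 genes of the opposite order, and open circles the 80 ribosomal protein genes, which lie below the dashed line.

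Genes that switch side numbered 384 (3.2% of those tested). Of these, 259 (2.16%) were higher in P-bodies in HEL and lower in MOLM-13, and 125 (1.04%) were lower in HEL and higher in MOLM-13. A called partition difference was part of the definition of a switch, and it removed none of the genes called on opposite sides. Among all tested genes 2925 had estimates of opposite sign whether called or not. Most switches were small. The median absolute log2 change was 0.40 in HEL and 0.53 in MOLM-13, 50 genes reached 1.5-fold in both lines, and 14 reached 2-fold in both. Because small changes lie near zero, the scaling decided many of them: 25 of the 259 and 49 of the 125 switched in the same way under all 4 scalings. Leaving out the same 3 HEL libraries in turn gave 203, 97 and 92 switches from higher in HEL and 338, 225 and 239 the other way.

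Among the genes higher in HEL P-bodies and lower in MOLM-13 P-bodies, SDF2L1, a chaperone partner of the endoplasmic reticulum (chr22:21642261-21644298, plus strand), had 36.3 and 40.6 normalised CPM in HEL P-bodies against 19.4 and 21.8 in cytosol, and 51.3 and 54.4 in MOLM-13 P-bodies against 91.0 and 77.4 in cytosol. LMO4, a LIM-domain transcriptional cofactor, had 19.6 and 23.6 against 13.2 and 13.8 in HEL, and 50.9 and 47.9 against 86.7 and 85.1 in MOLM-13. RWDD1, one of the genes with a TOP start shown above, had 60.3 and 72.5 against 41.6 and 41.7 in HEL, and 137 and 148 against 232 and 217 in MOLM-13. In all 3 genes the 2 fractions were separate in each line and every MOLM-13 library lay above every HEL library. Their log2 partition differences were -1.57, -1.47 and -1.33. CA5BP1, XACT and DLEU2, all noncoding, had -1.65, -1.48 and -1.48 and, like the former 3, switched under all 4 scalings. CA5BP1 is annotated as a pseudogene and DLEU2 as an antisense gene, so their reads may be shared with related or overlapping genes.

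RN7SL1 encodes the RNA scaffold of the particle that guides nascent secretory proteins to the endoplasmic reticulum. It had 14.4 and 19.7 normalised CPM in HEL P-bodies against 10.4 and 10.8 in cytosol, and 92.4 and 91.2 in MOLM-13 P-bodies against 226 and 207 in cytosol. Its log2 difference was -1.92 ± 0.16 (SE). It may share reads with near-identical copies, and its switch was not called under all 4 scalings, nor was that of PFDN4, a subunit of the prefoldin chaperone, which had -1.41.

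Among the genes lower in HEL P-bodies and higher in MOLM-13 P-bodies, CENPE, TPR, PIAS3 and ALDH1L2 switched under all 4 scalings. VPS52, a subunit of the tethering complex for vesicles returning to the Golgi, had a log2 difference of 1.31, with 42.3 and 37.8 normalised CPM in HEL P-bodies against 58.6 and 62.3 in cytosol, and 32.8 and 33.3 in MOLM-13 P-bodies against 20.7 and 19.5 in cytosol. ESYT2, which tethers the endoplasmic reticulum to the plasma membrane, had 1.13. Both switched under all 4 scalings. VAV3, a guanine nucleotide exchange factor with a log2 difference of 1.17, did not, and its HEL P-body libraries were wide apart, at 42.0 and 66.7 against 70.8 and 88.9 in cytosol.

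**Figure D3:**
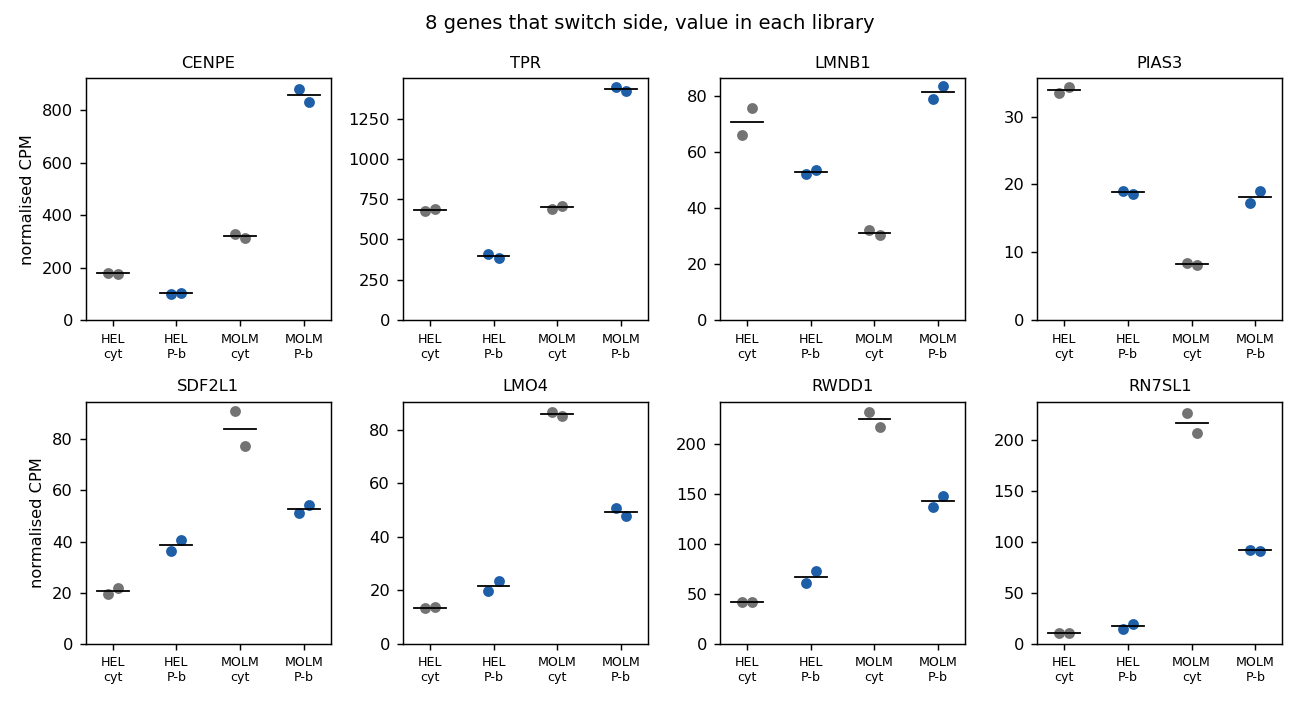
Normalised CPM of 8 genes in each of the 8 libraries (points; grey for cytosol, blue for P-bodies), with the mean of each pair as a bar; each panel has its own linear axis from 0. CENPE, TPR, LMNB1 and PIAS3 are below cytosol in HEL P-bodies and above it in MOLM-13 P-bodies, and SDF2L1, LMO4, RWDD1 and RN7SL1 are the reverse.

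The messages of P-body and mRNA decay proteins themselves were divided. Of 58 tested, 14 (24.1%) had a higher and 22 (37.9%) a lower partition difference in MOLM-13, beside 12.7% and 20.5% of all tested genes. Under all 4 scalings 15 of the 22 were lower. The median was -0.16, beside -0.12 over all tested genes. EDC4, the scaffold of the decapping complex and a core P-body protein (chr16:67873023-67884503, plus strand), was picked out after its values were seen. It had 48.3 and 46.1 normalised CPM in HEL P-bodies against 88.8 and 105 in cytosol, and 5.43 and 10.3 in MOLM-13 P-bodies against 3.35 and 3.50 in cytosol. EDC4 switched side under all 4 scalings with a log2 difference of 2.21 ± 0.32 (SE), but its MOLM-13 P-body libraries differed widely and its level was low in that line. PAN2, a catalytic subunit of a deadenylase, was at 30.5 and 26.0 CPM in HEL P-bodies against 40.6 and 43.2 in cytosol, and at 21.7 and 19.4 against 14.5 and 13.1 in MOLM-13. Its switch was not called under all 4 scalings.

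CNOT1, the scaffold of the main deadenylase complex, had a log2 change of 0.01 in HEL and 0.99 in MOLM-13. UPF1, the helicase of nonsense-mediated decay, was lower in P-bodies in both lines, at 22.3 and 40.8 normalised CPM against 102 and 149 in HEL and 37.7 and 38.6 against 79.7 and 79.0 in MOLM-13. In the other direction TNRC6A, a silencing partner of Argonaute, was higher in P-bodies in both lines, at 2.17 in HEL and 1.18 in MOLM-13. Of its 58 tested members the list had 4 switches from higher in HEL to lower in MOLM-13, beside 2.16% of all tested genes. They were LSM2, LSM3 and LSM4, subunits of the ring that binds decaying messages, and EIF4E2, a cap-binding repressor. None of these switched under all 4 scalings.

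Messages of cytosolic ribosomal proteins were the list with the lowest median. Of 80 tested, 79 had a lower partition difference in MOLM-13 and none a higher one, beside 20.5% and 12.7% of all tested genes. The one not called was RPS10, with a log2 difference of -0.60 ± 0.38 (SE). The median log2 change was 0.19 in HEL and -0.66 in MOLM-13, and the median partition difference was -0.85, which is -0.73 relative to all tested genes and ranged from -0.84 to -0.51 over the alternatives. With TMM, 34 of the 80 switched side, beside 3.2% of all tested genes, but 1 did so under all 4 scalings. Under all 4, 76 were called lower. In HEL these messages made up 2.35% ± 0.07 (SD, n = 2) of cytosolic counts and 2.01% ± 0.20 of P-body counts, and in MOLM-13 10.8% ± 0.42 and 5.73% ± 0.17. The fall in their share from cytosol to P-body was thus larger in MOLM-13, where the share was also higher in both fractions.

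RPL22, with the lowest p of the list, had 64.6 and 61.7 normalised CPM in HEL P-bodies against 48.9 and 52.5 in cytosol, and 177 and 175 in MOLM-13 P-bodies against 366 and 347 in cytosol. RPSA, which encodes a protein of the small ribosomal subunit, had 322 and 311 against 296 and 276 in HEL, and 543 and 562 against 1008 and 937 in MOLM-13. With TMM scaling, the P-body libraries of both genes lay just above cytosol in HEL and well below it in MOLM-13, without overlap. TMM factors were 0.885 and 0.903 in HEL P-bodies and 1.18 and 1.17 in HEL cytosol, which raised P-body levels relative to cytosol. The switch of RPL22 was not called under every scaling. As a share of library counts, the whole list was lower in HEL P-bodies (2.01%) than in HEL cytosol (2.35%). The log2 partition difference was -1.33 ± 0.10 (SE) for RPL22 and -0.96 ± 0.08 (SE) for RPSA. Ribosomal protein genes may share reads with their many processed pseudogenes, and the 699 tested pseudogenes of all kinds had a median partition difference of -0.57.

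Other messages with a known TOP start leaned the same way, with 15 of 22 lower, 1 higher and a median of -0.33, beside 20.5% lower and 12.7% higher over all tested genes. Under all 4 scalings 9 of the 15 were lower. NAP1L1, a histone chaperone, had 662 and 672 normalised CPM in HEL P-bodies against 257 and 248 in cytosol, while its 1772 and 1760 in MOLM-13 P-bodies were close to the 1560 and 1542 in cytosol. TPT1, the translationally controlled tumour protein, was not called in HEL, at a log2 change of 0.03, and was lower in MOLM-13 P-bodies at -0.95. PABPC1, the main poly(A)-binding protein, switched side under all 4 scalings, from 0.59 in HEL to -0.24 in MOLM-13. The elongation factors EEF1A1 and EEF2 had log2 differences of -0.32 and -0.24, and neither was called under all 4 scalings. The exception was VIM, the intermediate filament vimentin, at 0.33, with a range of 0.27 to 0.65 over the alternatives. Of the 16 tested members with an entry in the promoter table, 15 had the TOP start at an annotated start, and VIM did not.

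Host genes of small nucleolar RNAs behaved likewise, with 17 of 21 lower and none higher, beside 20.5% and 12.7% of all tested genes. Their median was -0.75. Under all 4 scalings 15 were lower. The TOP start was found in 5 of the 19 with an entry in the promoter table, and SNHG14, with the lowest p of the list, did not. The list switched side in 8 cases with TMM, beside 3.2% of all tested genes, and in none under all 4 scalings. SNHG14, an imprinted host transcript, was higher in P-bodies in both lines, at 205 and 206 normalised CPM against 44.9 and 49.9 in HEL and 434 and 458 against 251 and 242 in MOLM-13, a log2 difference of -1.26. GAS5, a host transcript known to carry a TOP start, had a log2 change of 0.50 in HEL and -0.36 in MOLM-13. SNHG19 had 2.38 and 2.27 CPM in HEL P-bodies against 1.94 and 1.59 in cytosol, and 4.50 and 5.61 in MOLM-13 P-bodies against 22.9 and 23.0 in cytosol, so the 2 lines parted in the cytosolic level.

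A TOP start was then searched in the RefSeq promoter table as a C at an annotated start followed by at least 4 bases that are each C or T, on the sense strand only. It was found at 1404 of 27305 symbols (5.14%) and at 683 of the 8887 tested genes in that table (7.69%). Of the genes that switched from higher in HEL to lower in MOLM-13, 34 of 195 (17.4%) had it, 18 of them ribosomal proteins. Without ribosomal proteins the share was 16 of 169 (9.47%), beside 636 of 8823 (7.21%) of tested genes. Of those that switched the other way 2 of 102 (1.96%) had it, namely HEATR5B, a protein of endosomal sorting, and PFKM, a phosphofructokinase. The median partition difference was -0.23 with the motif and -0.08 without it, and -0.20 with the motif once ribosomal proteins were left out. Among the 64 ribosomal protein genes in the table, the 47 with the motif had a median of -0.84 and the 17 without it -0.79. A match describes the letters at an annotated start and not the start used in these cells.

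**Figure D4:**
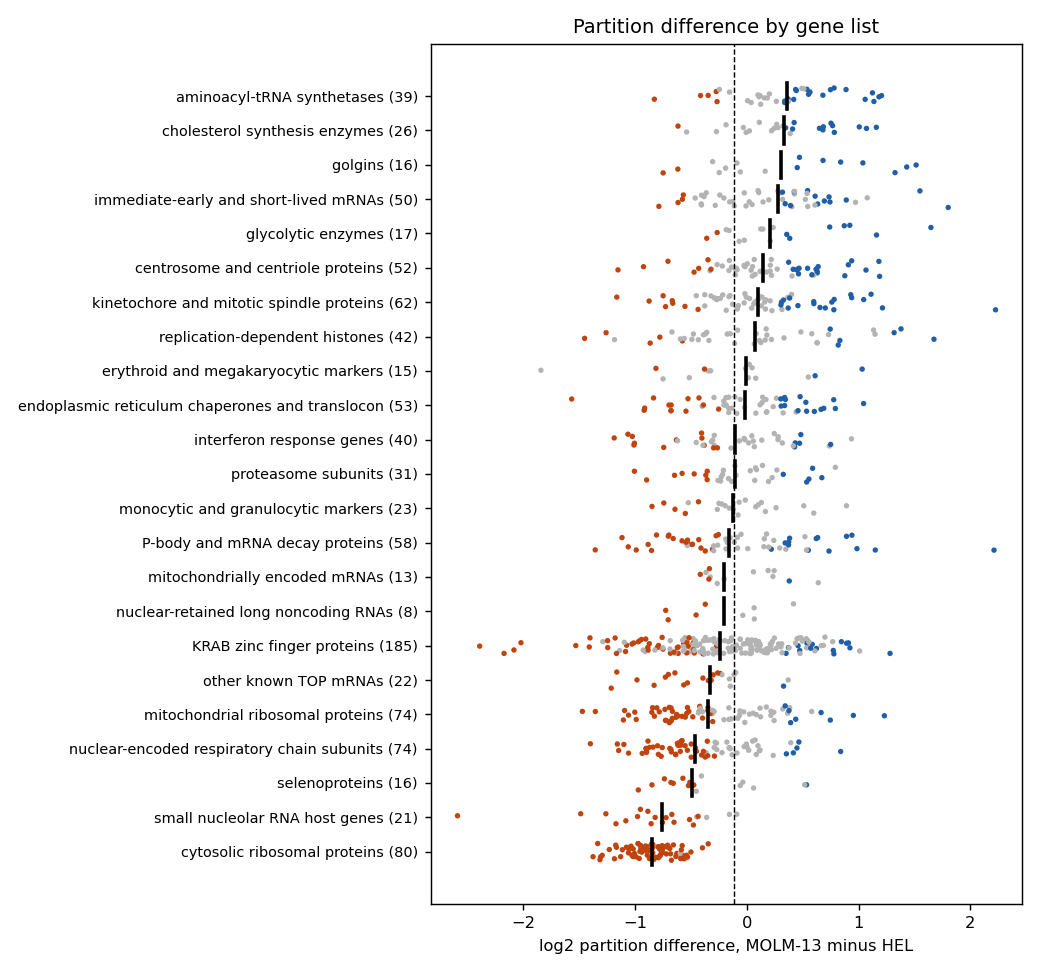
Each point is a tested gene at its log2 partition difference, by gene list (number tested in brackets; lists with at least 5 tested genes), with the list's median as a black bar and the median of all tested genes as a dashed line. Blue and red points were called higher and lower in MOLM-13; the ribosomal proteins (median -0.85) and small nucleolar RNA host genes (-0.75) lie farthest left, and the aminoacyl-tRNA synthetases (0.36) farthest right.

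Of 74 nuclear-encoded respiratory chain subunits 45 were lower and 5 higher (median -0.46). Of 74 mitochondrial ribosomal proteins 37 were lower and 8 higher (median -0.35), beside 20.5% lower and 12.7% higher over all tested genes. Under all 4 scalings 35 respiratory subunits and 29 mitochondrial ribosomal proteins were lower. NDUFB7, an accessory subunit of complex I, had 97.8 and 124 normalised CPM in HEL P-bodies against 74.8 and 86.8 in cytosol, and 302 and 319 in MOLM-13 P-bodies against 523 and 479 in cytosol. NDUFS1, the largest core subunit of the same complex, went the other way, with log2 changes of 0.46 in HEL and 1.30 in MOLM-13. MRPS12 (-1.06) and MRPS9 (1.23) of the mitochondrial ribosome parted in the same manner. With a trend on GC content and transcript length removed, the medians of these lists relative to all genes moved from -0.34 to -0.11 and from -0.23 to -0.10, and 12 respiratory subunits were higher and 25 lower. The 13 messages encoded in mitochondrial DNA were all lower in P-bodies in both lines; MT-ND4 had a higher partition difference (0.38) and MT-ND1, MT-CO3 and MT-CO2 a lower one (-0.42, -0.34 and -0.33). None of these 3 was called lower under all 4 scalings, and MT-ND4 lost its call under 6 alternatives.

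Aminoacyl-tRNA synthetases stood at the other end, with 19 of 39 higher and 5 lower, beside 12.7% and 20.5% of all tested genes. Of the 5, 2 were lower under all 4 scalings, and the list's median was 0.36. GARS1, which charges glycine tRNA, had 503 and 460 normalised CPM in HEL P-bodies against 505 and 501 in cytosol, and 836 and 843 in MOLM-13 P-bodies against 376 and 383 in cytosol. The fractions of GARS1 overlapped in HEL, and it was 2.21-fold higher in P-bodies in MOLM-13. WARS1 and MARS1 switched side from lower in HEL to higher in MOLM-13 under all 4 scalings, with a log2 difference of 1.14 for WARS1 and 0.89 for MARS1, and YARS1 (0.55) switched with TMM but not under all 4. AIMP1, a scaffold of the synthetase complex, had -0.41.

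Cholesterol synthesis enzymes had 12 of 26 higher and 1 lower (median 0.34), beside 12.7% higher and 20.5% lower over all tested genes. HMGCS1, which makes the precursor of mevalonate, had 235 and 229 normalised CPM in HEL P-bodies against 260 and 252 in cytosol, and 50.9 and 49.5 in MOLM-13 P-bodies against 26.4 and 23.3 in cytosol. The P-body libraries of HMGCS1 lay just below cytosol in HEL, where it was not called, and well above it in MOLM-13. ACAT2 and INSIG1, a thiolase and a sterol sensor, switched from lower in HEL to higher in MOLM-13, INSIG1 not under all 4 scalings, and PMVK was the member called lower, at -0.62. Glycolytic enzymes had 7 of 17 higher and 2 lower (median 0.21), led by PFKM (1.65) and LDHA (1.16). PFKM did not reach 10 CPM in a fraction of each line and was named after its values were seen. The 2 lower ones, LDHB and ENO1, were not called under all 4 scalings. LDHA had 1538 and 1356 CPM in HEL P-bodies against 1359 and 1302 in cytosol, which overlapped, and 958 and 973 in MOLM-13 P-bodies against 371 and 422 in cytosol.

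Of 16 golgins 8 were higher and 2 lower (median 0.31), and of 52 centrosome and centriole proteins 18 were higher and 7 lower (median 0.15), beside 12.7% higher and 20.5% lower over all tested genes. Under all 4 scalings 2 golgins and 4 centrosome proteins were lower. GOLGA4, a tether of the trans-Golgi (chr3:37243177-37366751, plus strand), had 370 and 334 normalised CPM in HEL P-bodies against 263 and 277 in cytosol, and 2583 and 2468 in MOLM-13 P-bodies against 678 and 676 in cytosol. It was higher in P-bodies in both lines, and the log2 partition difference of 1.52 ± 0.08 (SE) was a difference in size. AKAP9, a centrosomal and Golgi scaffold, switched from -0.50 in HEL to 0.69 in MOLM-13, while CEP97, a capping protein of the centriole, went down from 2.32 to 1.39. Kinetochore and mitotic spindle proteins had 19 of 62 higher and 8 lower, 5 of these under all 4 scalings (median 0.10); besides CENPE, the motor KIF11 (1.21) and the checkpoint kinase BUB1 (0.94) switched side under all 4 scalings, and the survivin gene BIRC5 had -0.66.

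Short-lived messages of the immediate-early class had 13 of 50 higher and 4 lower, 2 of these under all 4 scalings (median 0.28). Over all tested genes 12.7% were higher and 20.5% lower. Among the short-lived messages JUN, a subunit of the AP-1 transcription factor, was named after its values were seen, since its HEL level is below 10 CPM. It had 2.88 and 3.90 normalised CPM in HEL P-bodies against 5.88 and 7.25 in cytosol, and 47.6 and 48.4 in MOLM-13 P-bodies against 25.6 and 27.9 in cytosol, so its order was opposite in the 2 lines. IL1B, an inflammatory cytokine, was higher in P-bodies in both lines and more so in MOLM-13, with a log2 difference of 1.55, and NFKBIA, the inhibitor of NF-kappa B, had -0.58. Selenoproteins had 9 of 16 lower and 1 higher (median -0.49), yet relative to all genes their median was -0.38 and became -0.00 after correction for GC content and length. TXNRD1, a thioredoxin reductase, was the higher one at 0.53, and SELENOW had -0.97.

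In the remaining lists the counts are to be read against 12.7% higher and 20.5% lower over all tested genes. KRAB zinc finger proteins, repressors of transposable elements, had 16 of 185 higher and 43 lower (median -0.24), with ZNF45 at 0.89 and ZNF557 at -1.25. Proteasome subunits had 5 of 31 higher and 8 lower (median -0.11), interferon response genes 5 of 40 and 12 (median -0.10), and chaperones and translocon proteins of the endoplasmic reticulum 15 of 53 and 13 (median -0.02). Lower calls that held under all 4 scalings numbered 34 for the KRAB list, 5 for the proteasome, 5 for the interferon genes and 10 for the last list, in which PDIA3, a disulfide isomerase, switched from -0.17 in HEL to 0.88 in MOLM-13, the reverse of SDF2L1. Of 42 replication-dependent histones 6 were higher and 5 lower (median 0.08). After correction for GC content and length they had 14 higher and 1 lower, and their median relative to all genes went from 0.19 to 0.50. Of 15 erythroid and megakaryocytic markers tested, 2 were higher and 2 lower. The 23 tested markers of monocytes and granulocytes held 5 lower (21.7%) and none higher, with 3 lower under all 4 scalings. Of the 3 lymphoid markers 1 was lower. CA2, a carbonic anhydrase of red cells, had 1.03 and CST3, the protease inhibitor cystatin C, -0.85.

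Nuclear-retained long noncoding RNAs had 4 of 8 lower and none higher (median -0.20), beside 20.5% and 12.7% of all tested genes, and 1 of the 4, MALAT1, was lower under all 4 scalings. MALAT1 had 639 and 699 normalised CPM in HEL P-bodies against 678 and 606 in cytosol, which overlapped, and 3116 and 3127 in MOLM-13 P-bodies against 5067 and 4686 in cytosol. Scaled by library totals alone, the summed CPM of MALAT1 and NEAT1 was 578 to 648 in HEL P-bodies and 747 to 839 in HEL cytosol, and 2866 to 2871 and 5340 to 5664 in MOLM-13. These RNAs were thus higher in both MOLM-13 fractions, and their part in the partition differences was not tested. In such bulk libraries a change in the share of cells that carry a message and in its amount per cell cannot be told apart.

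Partition difference varied with coding length. From the shortest quintile of the 10299 coding genes (up to 768 bases) to the longest (from 2520 bases), the median rose from -0.28 through -0.16, -0.05 and -0.01 to 0.06, the share called lower went from 34.3% to 16.5%, and the share called higher from 7.38% to 23.4%. Within lines, the median log2 change ran from -0.31 in the shortest quintile to 0.13 in the longest in MOLM-13, whereas in HEL it stayed between -0.04 and 0.07. Spearman's rho of coding length was 0.012 with the change in HEL, 0.187 with that in MOLM-13 and 0.210 with the difference, over the 10299 genes, as a description. The switching genes had the same split: the shortest quintile held 130 of the genes higher in HEL and 6 of those higher in MOLM-13, and the longest quintile 14 and 50. Median coding length was 670.5 bases for the former, 2210 for the latter and 1419 over all tested coding genes.

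GC content had a like relation to partition in both lines, with a Spearman's rho of -0.677 in HEL and -0.735 in MOLM-13, and a weaker one to the difference (-0.137). In the quintile with the highest GC the median log2 change was -0.45 in HEL and -0.75 in MOLM-13. Among noncoding genes, 812 long noncoding RNAs had 16 higher (1.97%) and 87 lower (10.7%) partition differences and a median of -0.20, beside 12.7% and 20.5% over all tested genes. In the shortest quintile of coding lengths without ribosomal proteins, the 135 genes with a TOP start had a median of -0.39 and the 1513 without it -0.24.

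**Figure D5:**
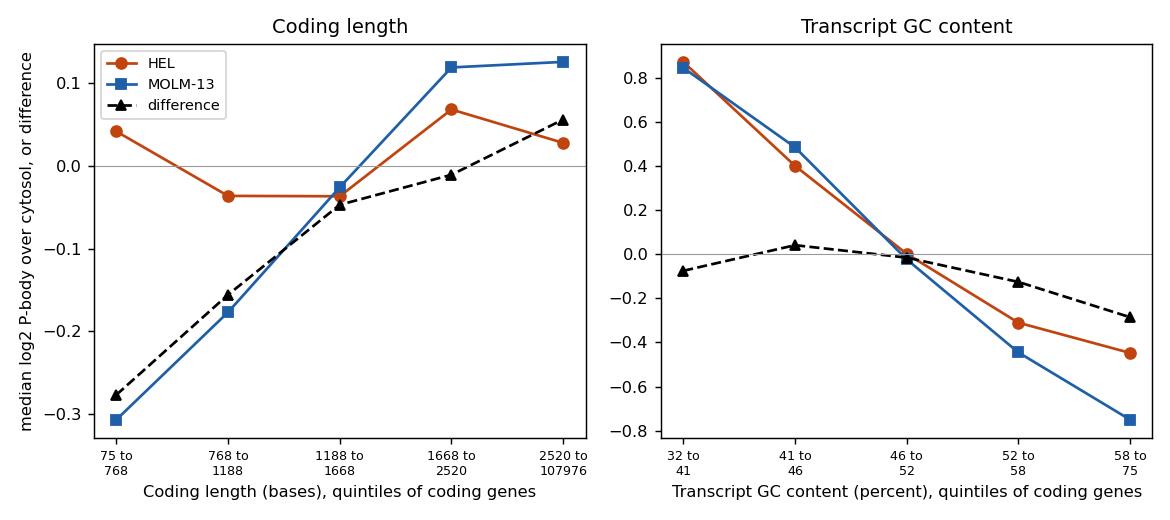
Median log2 P-body over cytosol change in HEL (circles) and MOLM-13 (squares) and median log2 partition difference (triangles) by quintiles of coding length (left) and of transcript GC content (right) over 10299 coding genes. The lines of the 2 cell lines part in the shortest coding quintile (0.04 in HEL, -0.31 in MOLM-13) and run close together over the lower GC quintiles.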

How the data were processed

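Per the labels' protocols, total RNA came from miRNeasy Micro columns and libraries from the NEBNext Ultra II kit. The authors deposited unnormalised read counts by gene symbol, 1 table a line. GRCh38, STAR, SAMtools 1.12 and DESeq2 are listed in the submitters' processing notes; the sources used here do not give the read counter, annotation release or strand setting. The tables were joined on 60196 symbols; 112 symbols on 1348 rows of each table were left out and held 0.0193% to 0.0477% of counts.

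All 8 libraries were fitted together with edgeR 4.0.16 in R 4.3.3 (group means, TMM, quasi-likelihood test), for genes that passed filterByExpr with a minimum count of 10 in each line. Each line's change and their difference were contrasts of this fit, with Benjamini-Hochberg adjustment over 11984 genes and a threshold of 0.05. The steps were tested on simulated data. Normalised CPM are counts scaled by the library total times its TMM factor. Coordinates and transcript properties (transcript with the longest coding sequence) are from GENCODE on GRCh38 for 11861 tested genes, with 123 unmatched; start sequences are from RefSeq. Totals per library, 5897625 to 18071473 counts, set the counting precision.

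Named genes had at least 10 CPM in a fraction of each line and were the 8 called genes with the greatest difference in each direction, the 8 with the greatest smaller change in each switch direction, 4 alike genes on each side, and the called gene with the lowest p in each direction of each of 24 lists, 76 genes in all; genes outside this rule were named as members of a list or small count after their values were seen. The genes and lists were chosen with earlier results of these data known. Alternatives were RLE (DESeq2) size factors, library totals, TMM within lines, other filters, DESeq2 1.42.0, limma 3.58.1 with sample quality weights, a replicate block, removal of a trend on GC content and length, and leaving out each library; fits of each line alone and other TMM reference libraries were added after the data had been seen. Some genes of the lists are counted but not reported here by name.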

Additional observations from a re-analysis of the deposited data

Results flagged for a closer look

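The lines differed by the interaction test in 1526 genes called higher and 2451 called lower in MOLM-13, and 259 and 125 genes switched side (higher in HEL and lower in MOLM-13, and the reverse). The genes named for their switch drew attention because the same contrast had opposite signs in the 2 lines and the difference was called. The log2 partition difference was -1.65 for CA5BP1, -1.92 for RN7SL1, -1.47 for LMO4, -1.57 for SDF2L1, -1.33 for RWDD1, -1.41 for PFDN4, -1.48 for XACT and -1.48 for DLEU2. It was 1.98 for PIAS3, 2.23 for CENPE, 1.82 for TPR, 1.31 for VPS52, 1.15 for PAN2, 1.79 for ALDH1L2, 1.17 for VAV3 and 1.13 for ESYT2. Groups of 2 libraries were too small to look for outlying libraries.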

How the results depend on the processing

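The counts moved with the zero point of the comparison and with the filter on low counts. TMM took HEL P-body replicate 1 as its reference library, and the median partition difference was -0.12. Without HEL P-body replicate 1, HEL cytosol replicate 1 or HEL cytosol replicate 2 it took MOLM-13 cytosol replicate 2. The median was then 0.12, 0.10 and 0.09. In these fits the left-out library and the reference changed together and cannot be told apart. With MOLM-13 P-body replicates 1 and 2 and cytosol replicates 1 and 2 as the reference in turn, a choice made after the data had been seen, 2741, 2727, 2550 and 2666 genes were higher and 1330, 1341, 1474 and 1378 lower; 532, 527, 451 and 496 were at least 2-fold higher and 291, 291, 322 and 302 at least 2-fold lower; 103, 107, 123 and 113 switched from higher in HEL and 304, 304, 269 and 282 the other way. Leaving out each library in turn gave 1174 to 2843 higher and 1172 to 2180 lower genes, 183 to 607 and 275 to 616 at least 2-fold, and 92 to 219 and 88 to 338 switches. TMM within each line gave 2411 higher, 1548 lower, 414 and 337 at least 2-fold, and 136 and 248 switches. Library totals gave 308 and 396 at least 2-fold and 105 and 272 switches. A filter of at least 1 count in each line gave 3199 higher, 1052 lower, 829 and 333 at least 2-fold, and 61 and 335 switches, and a mean of at least 5 CPM, which tests fewer genes, gave 102 and 376 at least 2-fold. DESeq2 gave 1553 lower, 324 at least 2-fold lower and 113 switches from higher in HEL. Removing a trend on GC content and length gave 334 and 287 at least 2-fold and 348 switches from lower in HEL. Each line fitted alone, also added later, gave 118 and 243 switches. Apart from the choice of reference with all 8 libraries, the causes of these shifts were not tested.

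Of the 76 named genes, DNAJA1 and ENO1 changed sign under some alternatives: DNAJA1 had 0.32 with the filter of at least 1 count, 0.28 without HEL P-body replicate 1 and 0.30 without HEL cytosol replicate 2, and ENO1 had 0.0573 with that filter and 0.0310 without HEL P-body replicate 1. Leaving out each library gave -0.0391 to 0.303 for DNAJA1 and -0.312 to 0.0310 for ENO1. CENPE stayed between 2.17 and 2.55, TPR between 1.76 and 2.14 and GPR85 between -2.85 and -2.39 over the alternatives run. The labels number the replicates, but deviations of same-numbered P-body and cytosolic libraries correlated at -0.0784 in HEL and -0.0112 in MOLM-13, so the numbers were not taken as pairs; with a replicate block 1515 genes were higher, 2401 lower, and 252 and 125 switched.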
